A study of Homo sapiens with 18 samples.

Results

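The metallothionein genes encode small, cysteine-rich proteins that bind zinc and copper, and they were followed here through siRNA treatment of 2 human cancer cell lines. The set had 9 of the 27968 gene symbols in each library. It held the metallothioneins MT1E, MT1F, MT1G, MT1H, MT1M, MT1X and MT2A, with the zinc exporter gene SLC30A1 and the zinc sensor gene MTF1 as comparison genes for a zinc response. The members were taken by symbol, and the set was chosen by a measured value, the higher level of MT1F after siRNA1 in both lines. Values of the 9 genes under siRNA1 are therefore a description with no test. The other contrasts were tested, although siRNA2 and siRNA3 were set against the same A549 control libraries as siRNA1. The genes were also chosen with earlier results of these data known, so these tests are not independent of the choice.

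The study measured RNA after transfection with siRNAs against BLM, the RecQ helicase lost in Bloom syndrome, to find the genes that BLM regulates in cancer cells. There were 3 libraries in each of 6 groups. A549, a lung cancer line, received siRNA1, siRNA2, siRNA3 or a control siRNA, and MDA-MB-231, a breast cancer line, received siRNA1 or a control siRNA. Every library came from cells that had been transfected, in medium with serum, and each line is a single established line. The labels' protocols name both flat and 3D culture without saying which a library came from, and nothing says that the 3 libraries of a group were separate cultures. What the p-values measure is thus how far these particular libraries spread, which could be technical spread alone. That siRNA1 was the same molecule in both lines is assumed from its name.

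As background, metallothionein genes sit in a cluster on human chromosome 16 and are switched on by zinc, cadmium and other metals. The sensor is MTF1, a zinc finger transcription factor that binds short metal response elements in their promoters when cellular zinc is high. SLC30A1 (ZnT1) pumps zinc out of the cell across the plasma membrane and is a classical MTF1 target. MT2A is the main metallothionein of most human cells, and glucocorticoids and oxidative stress also raise metallothionein mRNA.

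The promoters of 5 of the 9 genes were present in the RefSeq table used here (build GRCh38.p14), as the 250 bases before each gene's start. The MT2A and MT1X windows are shown because these genes carried most metallothionein mRNA, MT1H because it had no read at all, and SLC30A1 as the exporter. Capitals mark matches to the core of the metal response element, TGCACNC or TGCGCNC on either strand. A stretch of one form cannot also be the other, and no 2 matches overlap in these windows. The positions are chr16:56608334-56608583 for MT2A, chr16:56682220-56682469 for MT1X, chr16:56669564-56669813 for MT1H, all on the plus strand, and chr1:211579162-211579411 on the minus strand for SLC30A1, each written 5′ to 3′.
MT2A: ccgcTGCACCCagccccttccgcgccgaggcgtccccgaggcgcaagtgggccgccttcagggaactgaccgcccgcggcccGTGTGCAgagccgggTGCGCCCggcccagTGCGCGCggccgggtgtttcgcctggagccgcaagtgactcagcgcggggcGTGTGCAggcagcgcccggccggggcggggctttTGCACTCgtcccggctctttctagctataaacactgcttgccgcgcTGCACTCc
MT1X: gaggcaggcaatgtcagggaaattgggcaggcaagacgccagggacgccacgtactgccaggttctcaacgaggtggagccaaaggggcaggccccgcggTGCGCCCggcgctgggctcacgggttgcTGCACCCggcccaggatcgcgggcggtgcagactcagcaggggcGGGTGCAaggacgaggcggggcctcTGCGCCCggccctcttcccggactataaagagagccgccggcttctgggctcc
MT1H: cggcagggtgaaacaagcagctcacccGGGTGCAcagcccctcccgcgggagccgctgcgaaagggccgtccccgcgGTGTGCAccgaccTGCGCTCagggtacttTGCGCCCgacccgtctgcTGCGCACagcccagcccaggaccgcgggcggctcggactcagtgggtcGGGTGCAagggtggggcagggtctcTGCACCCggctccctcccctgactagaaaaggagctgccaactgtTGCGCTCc
SLC30A1: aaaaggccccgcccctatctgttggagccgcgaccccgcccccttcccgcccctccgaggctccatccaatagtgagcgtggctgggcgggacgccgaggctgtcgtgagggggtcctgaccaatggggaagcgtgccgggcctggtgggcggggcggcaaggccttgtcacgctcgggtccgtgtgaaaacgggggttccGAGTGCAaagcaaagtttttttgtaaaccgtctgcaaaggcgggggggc

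MT1H held 8 matches, MT2A 7, MT1X 4 and SLC30A1 1, while the MTF1 window held 0. Of 35116 promoter windows of this length, 24.8% held at least 1 match, 0.37% at least 4, 0.0313% at least 7 and 0.0171% at least 8. The 3 metallothionein windows were thus rich in these letters, and the silent MT1H was as rich as the abundant MT2A. MT1E, MT1F, MT1G and MT1M had no window in the table.

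Across the series, libraries held 30143047 to 40328208 expected counts, the estimated reads per gene. BLM averaged 0.583 ± 0.0153 TPM (a transcript level scaled to transcript length and library total) in A549 with siRNA1, 4.65 ± 0.203 with siRNA2 and 2.63 ± 0.180 with siRNA3, against 32.0 ± 1.56 in control (SD, n = 3 each). In MDA-MB-231 it averaged 2.59 ± 0.0862 TPM with siRNA1, against 16.6 ± 0.950 in control. Line markers matched the labels in part. AKR1B10, an A549 reductase, was 1986 to 4465 TPM in A549 and at most 0.83 TPM in MDA-MB-231, and all 6 A549 markers separated the lines. Of the 6 MDA-MB-231 markers only vimentin (VIM) was higher there without overlap, at 785 to 1784 TPM in A549 and 1815 to 2811 TPM in MDA-MB-231. CD44, CAV1, AXL and MSN overlapped between the lines, and SPARC was 11 to 38.5 TPM in A549 and at most 0.46 TPM in MDA-MB-231. Of 7 alveolar type 2 markers, SFTPA1, SFTPB, SFTPC and NKX2-1 were at most 0.21 TPM in A549, SFTPD at most 0.47 and NAPSA at most 1.85, while ABCA3 was 7.04 to 36.4 TPM. Their summed TPM was 24.6 to 27.1 in A549 with siRNA1, 12.7 to 13.8 with siRNA2 and 19.5 to 37.4 with siRNA3, against 7.71 to 9.88 in control. In MDA-MB-231 the sum was 12.7 to 14.0 with siRNA1 and 21.8 to 23.1 in control. Against the labels, NKX2-1 was 1.98 to 7.35 TPM in MDA-MB-231 and at most 0.03 TPM in A549. Of the leukocyte and endothelial markers reported here, PTPRC and CD3E were at most 0.13 TPM in all libraries and CDH5 at most 0.42. CD14 was 1.61 to 8.53 TPM in A549 and 8.46 to 13.2 TPM in MDA-MB-231, and PECAM1 was at most 0.14 TPM in A549 and 2.1 to 4.49 TPM in MDA-MB-231. The 6 luminal breast markers summed to 100.1 to 113 TPM in A549 with siRNA1, 116 to 124 with siRNA2 and 20.7 to 24.9 with siRNA3, against 35.6 to 42.9 in control. In the breast line MDA-MB-231 they summed to less, 7.20 to 8.08 TPM with siRNA1 and 9.57 to 11.2 TPM in control. The summed TPM of 6 fibroblast markers was 10.4 to 12.1 in A549 with siRNA1, 12.4 to 13.8 with siRNA2 and 5.50 to 9.39 with siRNA3, against 1.55 to 1.63 in control. The fibroblast marker DCN was at most 0.02 TPM in A549, and COL1A1 ran between 1.2 and 12.2 TPM. The part of these markers in the results was not tested. In bulk RNA, fewer expressing cells and less RNA per cell cannot be told apart.

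One library stood apart. Library 3 of A549 siRNA3 deviated from its group mean with an SD across genes of 0.261 log2 units, where the remaining 17 libraries had 0.0938 to 0.180. Its deviations followed transcript length, with a Spearman correlation of -0.736 across genes, so that short transcripts read high there. This is a description over genes that are not independent. Libraries 1 and 2, which share its group mean, had correlations of 0.637 and 0.563. A549 control library 2, used in every A549 comparison with control, had -0.503. A correlation with length was thus not confined to siRNA3 library 3. Metallothionein transcripts are short (404 to 506 nucleotides for MT1X, MT1F, MT2A and MT1E). The members' siRNA3 changes against control and the summed count are given with and without siRNA3 library 3. For the listed genes only the counts of calls are given without it, and the siRNA3 values of single listed genes include it. The siRNA3 TPM levels and shares include it as well.

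Only 4 of the 7 metallothioneins were expressed at more than 1 read in some library. MT1H and MT1M had 0 counts in all 18 libraries, and MT1G had 1 count in 1 library of A549 siRNA2 and 1 of MDA-MB-231 siRNA1. A count of 0 allows up to 3 counts, or 0.0744 to 0.0995 CPM (counts scaled to library size) depending on the library, for counting error only. MT1E separated the lines. It had 660.2, 733 and 569.7 TPM in MDA-MB-231 with siRNA1 and 128, 135 and 124 TPM in its control. In the 12 A549 libraries it had 1 read in all, in control library 1. An siRNA effect on MT1E could thus be seen only in MDA-MB-231.

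MT2A was the most abundant metallothionein in every library, followed by MT1X. In A549, MT1F was the least of the 3 that were expressed, and in MDA-MB-231 the order was MT2A, MT1X, MT1E and MT1F in each of the 6 libraries. In the plot of TPM by library the levels of MT1F, MT1X and MT2A form separate bands in the 4 A549 groups.

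**Figure D1:**
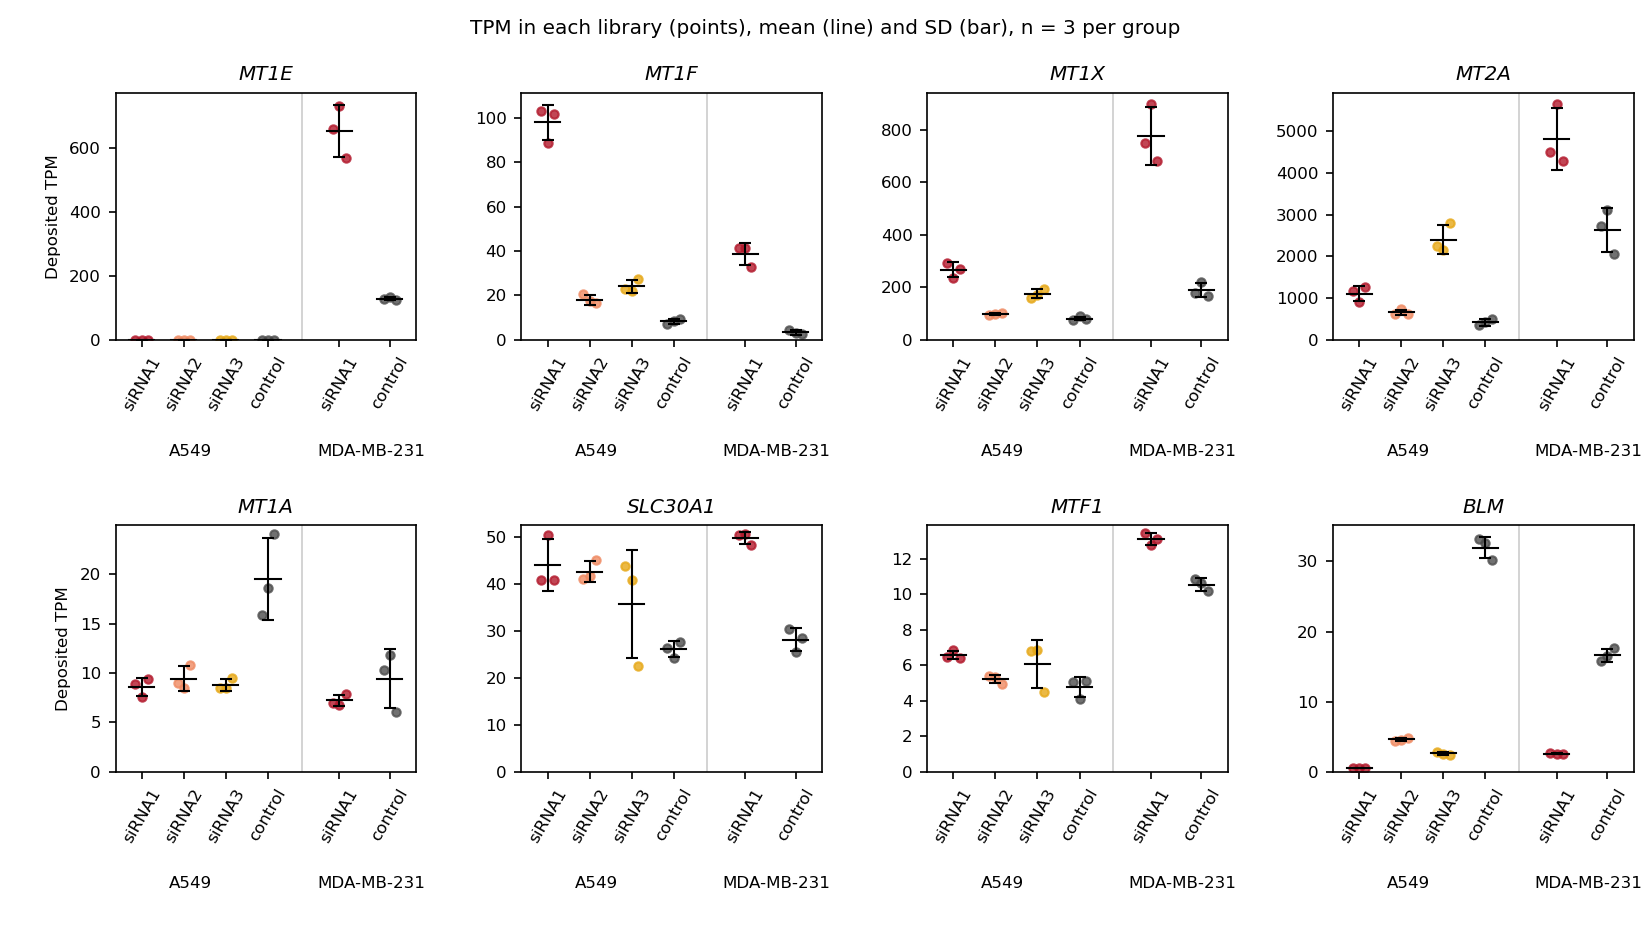
Deposited TPM (vertical axis, linear, from 0) of MT1E, MT1F, MT1X, MT2A, MT1A, SLC30A1, MTF1 and BLM in each library (points), with group means (lines) and SD (bars), n = 3 per group, for A549 and MDA-MB-231. MT1E is near 0 throughout A549, MT1F is highest with siRNA1, and MT2A in A549 is highest with siRNA3, between 2147 and 2788 TPM.

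With siRNA1, MT1F stood out most. In A549 it had 103, 88.8 and 102 TPM with siRNA1, against 7.22, 8.31 and 9.45 TPM in control. In MDA-MB-231 it had 41.5, 41.5 and 33.0 TPM with siRNA1, against 4.40, 2.99 and 2.57 TPM in control. The ratio of mean TPM was 11.8 in A549 and 11.6 in MDA-MB-231, and in neither line did the groups overlap. These are small numbers of reads at baseline, with 40 to 53 expected counts per A549 control library and 11 to 17 per MDA-MB-231 control library. The log2 fold change fitted by edgeR was 3.33 ± 0.18 (SE) in A549 and 3.51 ± 0.21 in MDA-MB-231, at the percentiles 98.0 and 99.98 of all genes tested. The difference between the lines was -0.14 ± 0.27.

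MT1X and MT2A were higher with siRNA1 as well, by less. MT1X had 294, 237 and 270.4 TPM in A549 with siRNA1, against 76.3, 89.5 and 78.0 TPM in control, a ratio of means of 3.29. In MDA-MB-231 it had 750.2, 899 and 681 TPM with siRNA1, against 179.9, 219 and 168 TPM in control, a ratio of 4.11. MT2A had 1159, 899 and 1259.7 TPM in A549 with siRNA1, against 345, 420.1 and 504 TPM in control, a ratio of 2.61. In MDA-MB-231 it had 4502, 5646 and 4276 TPM with siRNA1, against 2723, 3109.8 and 2059 TPM in control, a ratio of 1.83. No siRNA1 library overlapped a control library for either gene. MT1E in MDA-MB-231 had a ratio of 5.07 and a fitted log2 fold change of 2.3 ± 0.09. The fitted log2 fold changes were 1.49 ± 0.15 and 2.01 ± 0.11 for MT1X and 1.16 ± 0.19 and 0.84 ± 0.13 for MT2A, in A549 and MDA-MB-231 in that order.

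The exporter and the sensor moved less. SLC30A1 had 40.9, 50.5 and 41.0 TPM in A549 with siRNA1, against 26.5, 24.4 and 27.7 TPM in control. In MDA-MB-231 it had 50.5, 50.8 and 48.5 TPM with siRNA1, against 30.4, 25.5 and 28.6 TPM in control. The ratios of mean TPM were 1.69 and 1.77, while the log2 fold changes fitted on counts were 0.50 ± 0.14 in A549 and 0.75 ± 0.07 in MDA-MB-231. MTF1 averaged 6.57 ± 0.236 TPM with siRNA1 in A549, against 4.76 ± 0.563 in control. In MDA-MB-231 it averaged 13.1 ± 0.330 TPM with siRNA1, against 10.5 ± 0.359 in control (SD, n = 3 each). Its fitted log2 fold changes were 0.21 ± 0.10 in A549 and 0.23 ± 0.06 in MDA-MB-231. In TPM, all 5 members that passed the filter on low counts in A549, and all 6 in MDA-MB-231, had non-overlapping groups. The share of all genes with non-overlapping groups was not counted, and the shares that follow are calls of the test on counts. In A549, 71.7% of all 15898 genes tested were called changed by siRNA1 and 39% were called higher. In MDA-MB-231, 55.3% of 15280 genes were called changed and 27.5% higher. Since siRNA1 chose the genes, nothing is read from these counts.

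The siRNA1 effect in A549 minus that in MDA-MB-231 was -0.48 ± 0.17 log2 units for MT1X, 0.36 ± 0.22 for MT2A, -0.21 ± 0.11 for SLC30A1 and 0.02 ± 0.11 for MTF1, beside the -0.14 of MT1F. MT1X had the larger effect in MDA-MB-231 and MT2A in A549. On log2(TPM + 1) the differences of MT1F and MTF1 were 0.20 and 0.11, and the sign for MT1F turned in 2 of 22 alternatives. The sign for MTF1 turned in 11 of 22, with values from -0.126 to 0.153, so no direction is read for it. The rule also used this contrast, in which 57.8% of 16736 genes were called, 30.8% with the higher and 27% with the lower effect in A549, and these differences too are a description.

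The measured value behind the choice was not from siRNA2, although this contrast shares its A549 control libraries with siRNA1. With siRNA2, MT1F, MT2A and SLC30A1 rose. MT1F had 20.7, 17.3 and 16.5 TPM with siRNA2, against 7.22, 8.31 and 9.45 TPM in control. All siRNA2 libraries lay above all control libraries, and the log2 fold change was 1.09 ± 0.20 (edgeR quasi-likelihood test, Benjamini-Hochberg adjusted p = 0.000322). MT2A had 614, 737 and 619 TPM with siRNA2, against 345, 420.1 and 504 TPM in control, with a log2 fold change of 0.59 ± 0.19 (edgeR adjusted p = 0.0176). This call was lost without siRNA2 library 2 (edgeR adjusted p = 0.0733) and without control library 1 (edgeR adjusted p = 0.0849). SLC30A1 had 41.2, 41.8 and 45.2 TPM with siRNA2, against 26.5, 24.4 and 27.7 TPM in control, with a log2 fold change of 0.61 ± 0.14 (edgeR adjusted p = 0.00177).

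MT1X and MTF1 missed the threshold with siRNA2. MT1X had 94.5, 99.9 and 102.7 TPM with siRNA2, against 76.3, 89.5 and 78.0 TPM in control, groups that did not overlap in TPM. Its log2 fold change was 0.24 ± 0.16 on counts (edgeR adjusted p = 0.195) and 0.28 on log2(TPM + 1), where limma called it (adjusted p = 0.0215). MTF1 was 5.22 ± 0.236 TPM with siRNA2 and 4.76 ± 0.563 TPM in control (SD, n = 3), with overlapping libraries and a log2 fold change of 0.04 ± 0.10 (edgeR adjusted p = 0.774). In all, 3 of the 5 members tested were higher with siRNA2 and 0 lower, where 60.9% of all 15898 genes were called changed and 32.5% higher. The median log2 fold change was 0.59 over the 5 members and 0.04 over all genes.

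With siRNA3 all 5 members tested rose, and MT2A led. MT2A had 2253, 2147 and 2788 TPM with siRNA3, against 345, 420.1 and 504 TPM in control. Every siRNA3 library lay far above every control library, and the log2 fold change was 2.57 ± 0.20 (edgeR adjusted p = 1.68e-07), at percentile 98.1 of all genes. MT1F had 23.1, 22.0 and 27.4 TPM with siRNA3, against 7.22, 8.31 and 9.45 TPM in control (log2 fold change 1.60 ± 0.19, edgeR adjusted p = 8.64e-06). MT1X had 161, 170.3 and 195 TPM with siRNA3, against 76.3, 89.5 and 78.0 TPM in control (log2 fold change 1.17 ± 0.15, edgeR adjusted p = 1.86e-05). For none of these did the groups overlap.

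SLC30A1 had 44.0, 40.9 and 22.6 TPM with siRNA3, against 26.5, 24.4 and 27.7 TPM in control. Library 3, the one that stood apart, lay below every control library, and the other 2 lay above all of them. The log2 fold change was 0.44 ± 0.14 (edgeR adjusted p = 0.0144), and without library 3 it was 0.63 (edgeR adjusted p = 1.67e-05). The call was lost on log2(TPM + 1) (limma adjusted p = 0.110) and without siRNA3 library 1 (edgeR adjusted p = 0.0753) or 2 (edgeR adjusted p = 0.0507). MTF1 had 6.79, 6.87 and 4.50 TPM with siRNA3, against 5.06, 4.11 and 5.11 TPM in control, with library 3 in the range of control. Its log2 fold change was 0.34 ± 0.10 (edgeR adjusted p = 0.0108), and 0.45 without library 3 (edgeR adjusted p = 0.000507). It was not called on log2(TPM + 1) (limma adjusted p = 0.0971) or without control library 2 (edgeR adjusted p = 0.0586).

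The share of all 15898 genes called changed by siRNA3 was 61.3%, with 30.9% higher, beside 5 of 5 members tested higher. The members' median log2 fold change was 1.17, against 0.00 over all genes. Without library 3 the log2 fold changes were 2.32 for MT2A, 1.38 for MT1F and 0.96 for MT1X, and all 5 members were still called higher. The median over genes with transcripts of at most 1000 nucleotides was -0.06 for siRNA3, and the part of length in the members' changes was not tested. On log2(TPM + 1) and on log2(TPM + 0.1), 3 of the 5 members were called higher.

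**Figure D2:**
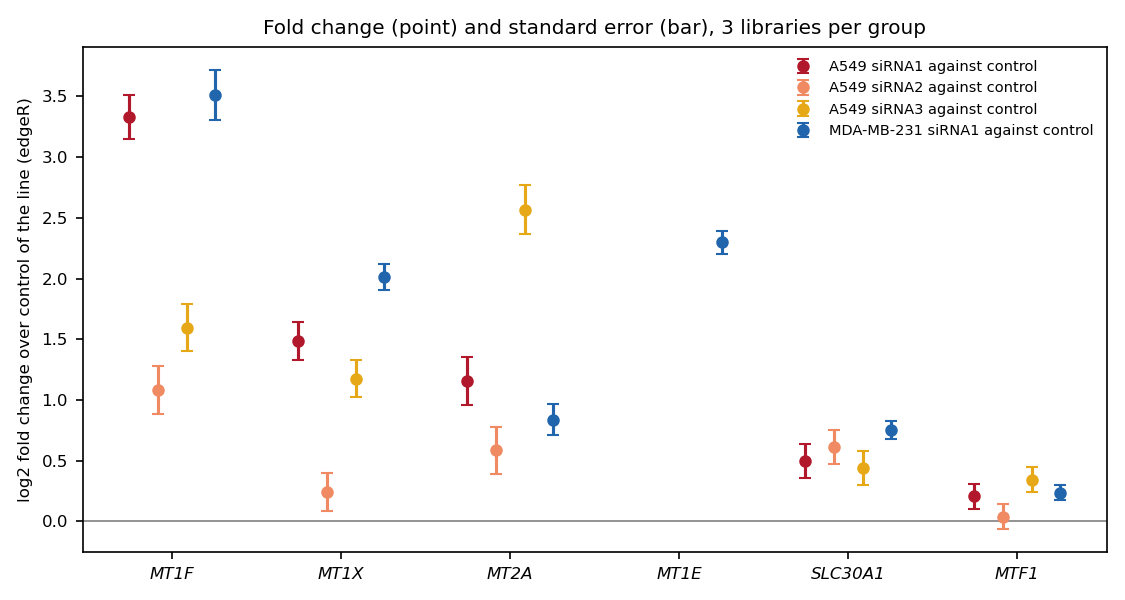
Log2 fold change over the control of the same line (vertical axis, edgeR) for MT1F, MT1X, MT2A, MT1E, SLC30A1 and MTF1, with standard errors (bars), for A549 with siRNA1, siRNA2 and siRNA3 and MDA-MB-231 with siRNA1, 3 libraries per group. MT1F is the highest of the genes with siRNA1 in both lines (3.33 and 3.51), and MT2A is the highest with siRNA3 (2.57).

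The metallothioneins differed in which siRNA gave the highest level, as a description only, since the MT1F level with siRNA1 chose the set. In A549 the order of MT1F levels was siRNA1, siRNA3, siRNA2 and control, and the same order held for MT1X. For MT2A it was siRNA3, siRNA1, siRNA2 and control. In TPM, neighbours in these orders did not overlap in any of the 3 genes. In CPM they overlapped for MT1X, where siRNA3 library 3, at 31.1 CPM, lay within the 25.3 to 32.3 CPM of siRNA1, and siRNA2 (12.03 to 12.7 CPM) overlapped control (10.05 to 12.6 CPM). For SLC30A1, siRNA1 and siRNA2 averaged 44.1 ± 5.55 and 42.7 ± 2.17 TPM, and their libraries overlapped each other and those of siRNA3.

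Between siRNA2 and siRNA3, a contrast without the measured value behind the choice, MT2A, MT1X, MT1F and MTF1 were lower with siRNA2. The log2 difference, siRNA2 minus siRNA3, was -1.98 ± 0.20 for MT2A (edgeR adjusted p = 1.53e-06) and -0.93 ± 0.15 for MT1X (edgeR adjusted p = 0.000143). Without siRNA3 library 3 these were -1.73 and -0.72, both still called. MT1F differed by -0.51 ± 0.18 (edgeR adjusted p = 0.0240), and this call was lost without siRNA3 library 3, at -0.29 (edgeR adjusted p = 0.121), and without siRNA2 library 2 (0.0686) or 3 (0.0858, edgeR adjusted p). MTF1 differed by -0.31 ± 0.10 (edgeR adjusted p = 0.0212), a call lost on log2(TPM + 1) (limma adjusted p = 0.325) and without siRNA2 library 3 (edgeR adjusted p = 0.0841) or siRNA3 library 1 (edgeR adjusted p = 0.0688). SLC30A1 differed by 0.17 ± 0.14 (edgeR adjusted p = 0.301). Of the 5 members tested, 4 were lower with siRNA2 and 0 higher, beside 59% of all genes called different and 28.9% lower, and 3 were lower without siRNA3 library 3. The count was 2, MT2A and MT1X, without siRNA2 library 3, with upper quartile factors and with only those groups fitted.

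Summed over the 7 metallothioneins, A549 held 1471 ± 216 TPM with siRNA1, 774 ± 69.6 with siRNA2 and 2595 ± 363 with siRNA3, against 513 ± 81.5 in control (SD, n = 3 each). MDA-MB-231 held 6278 ± 923 TPM with siRNA1, against 2952 ± 561 in control. The lowest library of each siRNA group was above the highest control library of its line. The log2 difference of the summed CPM was 1.2, 0.51 and 2.36 in A549 for siRNA1, siRNA2 and siRNA3, and 1.05 in MDA-MB-231 for siRNA1. Without siRNA3 library 3 the siRNA3 value was 2.13. The summed count keeps reads that near-identical copies share, and moving a read between members does not change it, while the summed TPM also depends on each member's length.

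The makeup of the sum also differed. MT2A made up 75.02% ± 1.95 of the summed TPM in A549 with siRNA1, 84.8% ± 1.32 with siRNA2 and 92.3% ± 0.440 with siRNA3, against 82.3% ± 2.57 in control (SD, n = 3 each). The siRNA1 libraries (73.4% to 77.2%) lay below all control libraries (80.5% to 85.2%), and the siRNA3 libraries (91.8% to 92.6%) lay above them. MT1F made up 6.71% with siRNA1, 2.37% with siRNA2 and 0.932% with siRNA3, against 1.63% in control. In MDA-MB-231, MT2A made up 76.6% ± 0.824 with siRNA1, against 89.0% ± 1.29 in control, while MT1E made up 10.4% ± 0.567 with siRNA1, against 4.46% ± 0.728 in control. In both lines the siRNA1 sum held less MT2A and more of the MT1 genes than control, and in A549 the siRNA3 sum held more MT2A.

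**Figure D3:**
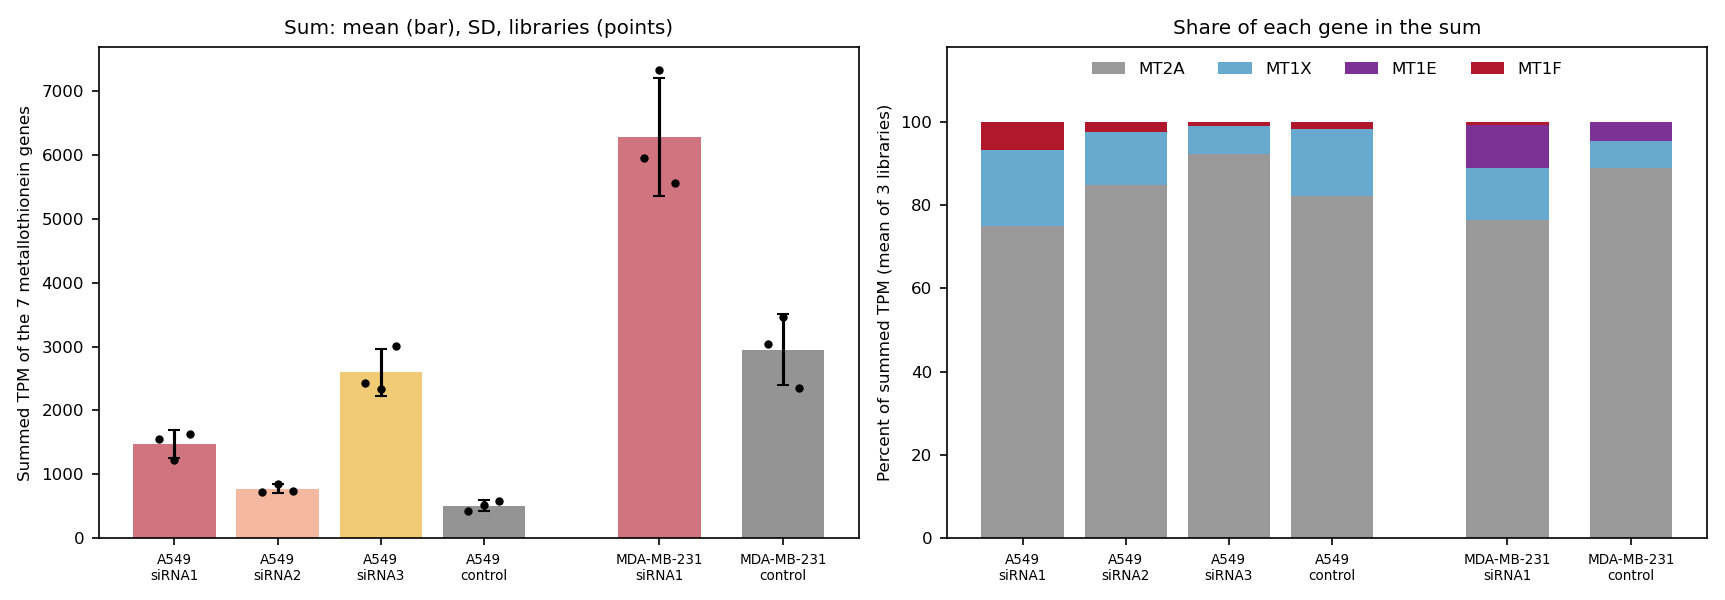
Left, summed TPM of the 7 metallothionein genes in each group (bars, mean; error bars, SD; points, libraries; n = 3). Right, the mean percent of that sum from MT2A, MT1X, MT1E and MT1F. A549 with siRNA3 has the largest A549 sum (2595 TPM) and the highest MT2A share (92.3%), and MT1E (10.4% with siRNA1) appears only in the MDA-MB-231 bars at this scale.

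At baseline the A549 control held less metallothionein mRNA than the MDA-MB-231 control. MT2A was 423 ± 79.6 TPM in A549 control and 2631 ± 531 TPM in MDA-MB-231 control (SD, n = 3), a log2 difference of -2.38 ± 0.14 (edgeR adjusted p = 2.39e-09). MT1X was 81.3 ± 7.17 and 189 ± 26.7 TPM in A549 control and MDA-MB-231 control (-0.96 ± 0.11 on the log2 scale, edgeR adjusted p = 2.89e-06). MT1F ran the other way, with 8.33 ± 1.12 TPM in A549 control and 3.32 ± 0.959 TPM in MDA-MB-231 control (1.58 ± 0.26 on the log2 scale, edgeR adjusted p = 8.60e-05).

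MT1E had 1 read in the 3 A549 control libraries and 1949 in the 3 MDA-MB-231 control libraries. The ratio A549 over MDA-MB-231, adjusted for library size, was 0.000423, with an exact 95% interval of 1.07e-05 to 0.00236 that covers counting error only. It passed the filter on low counts through MDA-MB-231, so no test is given for it. MTF1 was 4.76 ± 0.563 TPM in A549 control and 10.5 ± 0.359 TPM in MDA-MB-231 control (-0.89 ± 0.09 on the log2 scale, edgeR adjusted p = 7.74e-07). SLC30A1 was 26.2 ± 1.67 and 28.2 ± 2.49 TPM in A549 control and MDA-MB-231 control (0.15 ± 0.08 on the log2 scale, edgeR adjusted p = 0.107), and its direction turned on deposited TPM, at -0.10. Of the 5 members tested other than MT1E, 1 was higher and 3 were lower in A549 control, beside 82% of all 15816 genes called different, 40.7% higher and 41.3% lower. Transcripts of at most 1000 nucleotides had a median log2 difference of 0.33 in this comparison, and the part of length in the members' differences was not tested.

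The deposited TPM values set the scale differently from the counts, most of all in 2 comparisons. On log2(TPM + 1) the median of all genes was 0.23 for A549 siRNA1 against control, where it was 0.09 on counts, and -0.20 for the 2 controls, where it was -0.01. Of the genes called with siRNA1 in A549, 68.4% were higher on TPM and 54.3% on counts, and of those called between the controls 38.6% and 49.6% were higher in A549. The ratios of TPM given above for A549 siRNA1 are read against that shift.

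MT1A, a metallothionein gene outside the set, was lower with each siRNA in A549, where MT1F and MT2A were higher. It had 8.87, 7.60 and 9.35 TPM with siRNA1, 8.97, 8.45 and 10.9 TPM with siRNA2 and 8.48, 8.46 and 9.49 TPM with siRNA3, against 15.9, 18.6 and 24.1 TPM in control. Each siRNA group lay below the control group, at 44.1%, 48.3% and 45.2% of its mean. MT1A fell by 1.40 ± 0.20 on the log2 scale with siRNA1 (edgeR adjusted p = 3.34e-05), by 1.09 ± 0.20 with siRNA2 (edgeR adjusted p = 0.000394) and by 1.08 ± 0.20 with siRNA3 (edgeR adjusted p = 0.000434). The control libraries held 73 to 112 counts of it. The 3 comparisons share the control libraries. In MDA-MB-231 it had 6.99, 6.80 and 7.91 TPM with siRNA1, against 10.3, 11.8 and 6.07 TPM in control, groups that overlapped (log2 fold change -0.38, edgeR adjusted p = 0.232). Of the 9 other metallothionein symbols looked up, MT1A and the pseudogene MT1DP were the 2 that passed the filter in A549. MT1DP had no call against control. MT1L, MT1JP, MT1IP, MT1HL1 and MT4 had 0 counts in every library.

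Reads of near-identical copies limit the single genes. Reference transcripts (GENCODE 29) of 8 genes, the set's metallothioneins and MT1A, were compared in 50-base stretches. Of these stretches, 17.4% in MT1G, 14.7% in MT1X and 4.9% in MT1A also occurred in another of the 8 genes. The shares were 3.14% for MT1F, 2.17% for MT2A and 0.458% for MT1E. The longest reference transcripts had 786 bases for MT2A, 704 for MT1E, 690 for MT1F and 450 for MT1X. The lengths listed with the counts were at most 452, 506, 444 and 404 bases. The shares are thus of longer transcripts than those counted, least so for MT1X. In number, 59 stretches were shared for MT1X, 23 for MT1F, 16 for MT2A and 3 for MT1E. Expected counts were not whole in 2 libraries for MT1X, in 1 for MT2A and in none for MT1F or MT1E. By both measures MT1X was the least certain of the expressed members.

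Zinc moves through the ZnT family (SLC30), which exports it from the cytosol into organelles or out of the cell, and the ZIP family (SLC39), which brings it in. The ZnT genes other than SLC30A1 mostly did not follow SLC30A1. Of 9, 6 were tested, of which 1 rose and 4 fell with siRNA1, 0 rose and 1 fell with siRNA2, and 0 rose and 4 fell with siRNA3 in A549, while 1 rose and 2 fell with siRNA1 in MDA-MB-231. Over all genes, 32.8%, 28.4%, 30.4% and 27.8% were called lower in these 4 comparisons. The median log2 fold changes of the tested ZnT genes were -0.47, -0.06, -0.52 and -0.19, against 0.09, 0.04, 0.00 and 0.01 over all genes. SLC30A5, a transporter of the secretory pathway, had 27.6, 36.8 and 28.1 TPM with siRNA1, 44.4, 45.8 and 55.8 TPM with siRNA2 and 33.7, 30.5 and 25.7 TPM with siRNA3, against 51.2, 49.7 and 48.4 TPM in A549 control. The siRNA1 and siRNA3 libraries lay below control, and those of siRNA2 overlapped it. Its log2 fold change was -0.98 ± 0.10 with siRNA1 (edgeR adjusted p = 1.29e-06), -0.72 ± 0.10 with siRNA3 (edgeR adjusted p = 3.52e-05) and -0.51 ± 0.06 in MDA-MB-231 (edgeR adjusted p = 0.000103). SLC30A6, which pairs with SLC30A5, fell by 0.50 ± 0.09, 0.32 ± 0.09 and 1.17 ± 0.10 on the log2 scale with siRNA1, siRNA2 and siRNA3 in A549 (edgeR adjusted p = 0.000299, 0.00910 and 2.41e-07). In TPM the SLC30A6 calls for siRNA1 and siRNA2 were lost (limma adjusted p = 0.0946 and 0.138). SLC30A3, a vesicle zinc transporter, fell by 1.47 ± 0.19 with siRNA1 (edgeR adjusted p = 1.25e-05) and its log2 fold change was -2.33 ± 0.22 with siRNA3 (edgeR adjusted p = 8.17e-07).

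Among the ZIP genes, 11 of 14 were tested. With siRNA1, siRNA2 and siRNA3 in A549 4, 2 and 3 rose and 3, 3 and 4 fell, and in MDA-MB-231 1 rose and 3 fell. The shares of all genes called higher were 39%, 32.5%, 30.9% and 27.5%, and those called lower 32.8%, 28.4%, 30.4% and 27.8%. The median log2 fold changes of the tested ZIP genes were -0.13, -0.06, -0.05 and -0.04 in these comparisons. SLC39A11, a zinc importer, had 40.7, 44.0 and 42.3 TPM with siRNA1, 26.5, 30.1 and 29.2 TPM with siRNA2 and 19.1, 19.5 and 17.8 TPM with siRNA3, against 14.3, 11.8 and 12.6 TPM in A549 control. It had 9.46, 8.70 and 9.26 TPM with siRNA1 in MDA-MB-231, against 6.58, 6.62 and 6.90 TPM in control. SLC39A11 rose in all 4 comparisons, by 1.44 ± 0.08, 1.04 ± 0.08, 0.55 ± 0.08 and 0.38 ± 0.08 on the log2 scale (edgeR adjusted p = 3.57e-09, 2.16e-07, 6.71e-05 and 0.00267). SLC39A13 followed siRNA1 and siRNA3, with 0.84 ± 0.11 and 1.59 ± 0.11 (edgeR adjusted p = 8.45e-06 and 3.95e-08). SLC39A10, a plasma membrane importer, fell by 0.69 ± 0.13 with siRNA1 in A549 (edgeR adjusted p = 0.000369) and by 0.88 ± 0.10 in MDA-MB-231 (edgeR adjusted p = 3.98e-05).

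**Figure D4:**
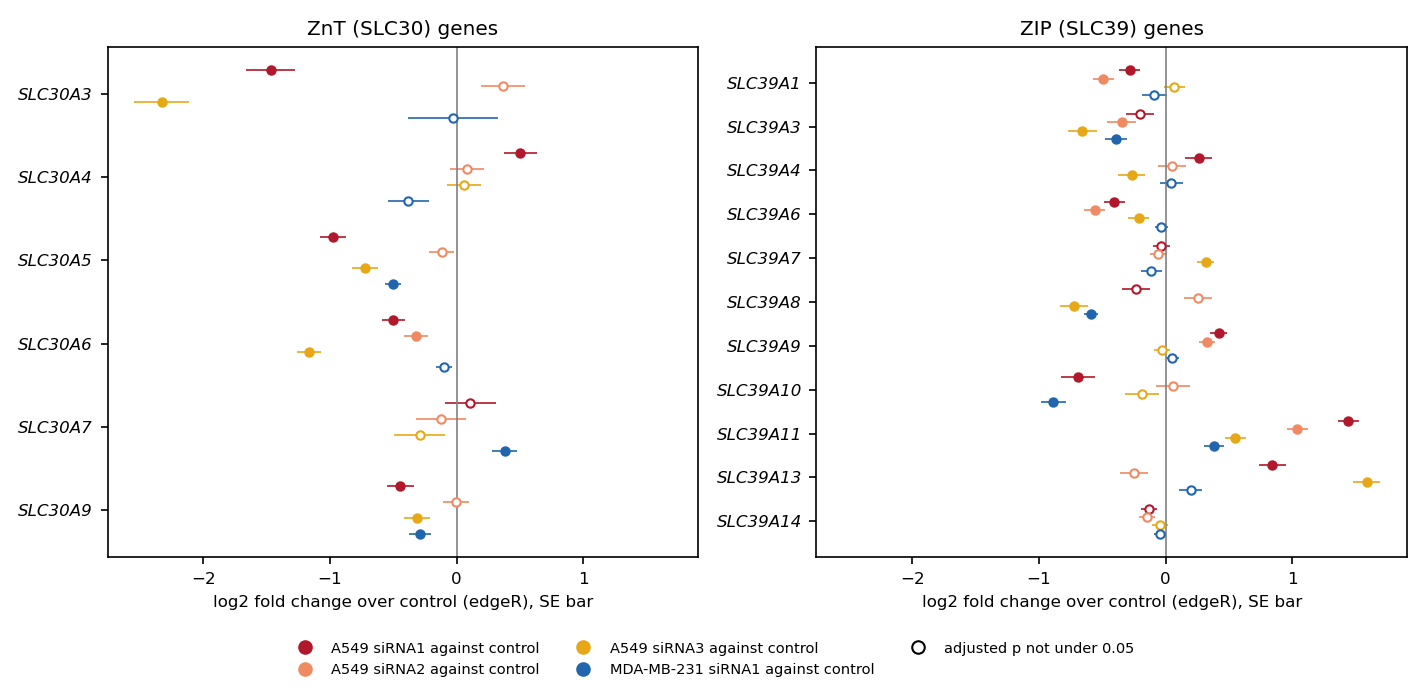
Log2 fold change over the control of the same line (horizontal axis, edgeR, with standard errors) for the tested ZnT genes other than SLC30A1 (left) and ZIP genes (right) in the 4 siRNA comparisons; filled points passed an adjusted p of 0.05 and open points did not. SLC39A11 lies right of 0 in all 4 comparisons, from 0.38 to 1.44, and SLC30A5, with changes of -0.98, -0.72 and -0.51, lies left of 0 in the 3 that were called.

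Copper is the other metal that metallothioneins bind. All 12 copper handling genes were tested, of which 4 rose and 4 fell with siRNA1, 2 rose and 2 fell with siRNA2, 1 rose and 6 fell with siRNA3, and 3 rose and 3 fell in MDA-MB-231. Beside these stand 39%, 32.5%, 30.9% and 27.5% of all genes called higher and 32.8%, 28.4%, 30.4% and 27.8% called lower. Their median log2 fold changes were 0.11, -0.08, -0.15 and 0.14. The copper exporter ATP7A rose by 0.68 ± 0.13 with siRNA1 and 0.95 ± 0.13 with siRNA2 in A549 (edgeR adjusted p = 0.000427 and 3.55e-05) and by 0.59 ± 0.07 in MDA-MB-231 (edgeR adjusted p = 6.73e-05). Its log2 fold change with siRNA3, library 3 included, was -0.34 ± 0.13 (edgeR adjusted p = 0.0444). In TPM the ATP7A libraries of siRNA3 (5.18 to 9.05) overlapped those of A549 control (8.01 to 10.63). SLC31A1, the copper importer CTR1, fell by 0.37 ± 0.08, 0.58 ± 0.08 and 0.83 ± 0.08 in A549 with siRNA1, siRNA2 and siRNA3 (edgeR adjusted p = 0.000816, 2.54e-05 and 9.45e-07). Without siRNA3 library 3, the siRNA3 counts were 1 higher and 5 lower for copper genes, 3 and 3 for ZIP genes, and 0 and 4 for ZnT genes.

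Glucocorticoids also raise metallothionein mRNA, and the receptor and its targets were read beside the members. Of 12 genes 11 were tested, of which 4 rose and 5 fell with siRNA1, 2 rose and 4 fell with siRNA2, 3 rose and 6 fell with siRNA3, and 8 rose and 2 fell in MDA-MB-231. Over all genes, 39%, 32.5%, 30.9% and 27.5% were called higher and 32.8%, 28.4%, 30.4% and 27.8% lower in these comparisons. FKBP5, a chaperone of steroid receptors and a standard glucocorticoid target, fell by 1.91 ± 0.10, 1.31 ± 0.10 and 1.69 ± 0.10 in A549 with siRNA1, siRNA2 and siRNA3 (edgeR adjusted p = 1.20e-09, 1.05e-07 and 1.05e-08), and by 0.93 ± 0.06 in MDA-MB-231 (edgeR adjusted p = 7.99e-07). TSC22D3 (GILZ), another standard target, rose by 1.47 ± 0.10 with siRNA1 in A549 and by 1.08 ± 0.07 in MDA-MB-231 (edgeR adjusted p = 2.62e-08 and 1.93e-06), rose by 0.70 ± 0.10 with siRNA2 (edgeR adjusted p = 5.53e-05) and fell by 0.31 ± 0.11 with siRNA3 (edgeR adjusted p = 0.0226). FKBP5 and TSC22D3, 2 of the 11 genes tested, thus changed in opposite directions with siRNA1 in both lines. The receptor gene NR3C1 averaged 151 ± 13.0 TPM with siRNA1 in A549, against 54.7 ± 3.88 in control (SD). With siRNA2 it averaged 64.5 ± 1.69 TPM and with siRNA3 56.9 ± 12.8 TPM. In MDA-MB-231 it averaged 67.5 ± 2.77 TPM with siRNA1, against 52.5 ± 4.45 in control. The part of the receptor in the members' changes was not tested. The median log2 fold changes of the list were -0.01, -0.08, -0.31 and 0.44 in the 4 comparisons. Without siRNA3 library 3, 3 genes of the list still rose and 6 fell with siRNA3.

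The genes nearest in pattern to each metallothionein were sought over 12281 genes outside the set, in the 18 libraries. The measure was the root mean square difference of log2 CPM centred within each line. The nearest to MT1F were SESN2 (a stress-induced sestrin, 0.495), ACKR3 (a chemokine scavenger receptor, 0.532) and BBC3 (the pro-apoptotic PUMA, 0.650), where MT1F itself had a root mean square of 1.37. SESN2 averaged 42.0 TPM with siRNA1, 16.2 with siRNA2 and 9.26 with siRNA3, against 4.92 in A549 control, and 46.6 with siRNA1 against 7.79 in control in MDA-MB-231. Like MT1F it was highest with siRNA1, although it had siRNA2 above siRNA3. The nearest to MT1X were JUNB (an AP-1 subunit, 0.239), CEACAM19 (0.270) and KCTD11 (0.302), with MT1X at 0.771. JUNB averaged 80.5 TPM with siRNA1, 36.9 with siRNA2 and 65.3 with siRNA3, against 29.7 in A549 control, the same order as MT1X.

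The nearest to MT2A were PTK6 (a tyrosine kinase, 0.231), S100A16 (a calcium-binding protein, 0.247) and PPP1R13L (iASPP, 0.298), with MT2A at 0.828. S100A16 averaged 471 TPM with siRNA1, 234 with siRNA2 and 874 with siRNA3, against 223 in A549 control, with siRNA3 highest as for MT2A. The nearest to MT1E, whose pattern varied only within MDA-MB-231, were TRIB3 (a pseudokinase, 0.298), HMOX1 (heme oxygenase 1, 0.318) and TRIM16L (0.329), with MT1E at 0.673. HMOX1 averaged 77.9 TPM with siRNA1 in MDA-MB-231, against 16.7 in control. No gene was named for 2 of the metallothioneins. Members could not be named for each other, and only the 3 nearest genes were kept for each. No difference between the metallothioneins is therefore read from these names.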

How the data were processed

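Total RNA was sequenced in 18 libraries, 3 in each of 6 groups set by the labels' cell line and siRNA (stranded TruSeq libraries after Ribo-Zero Gold, per the labels' protocols). The deposited expected counts per gene came from RSEM on hg19, per the submitters' processing notes. Per the file headers, the deposited TPM is the length-scaled level that goes with each count. For RSEM's version, the aligner, the annotation release and the counting strand, nothing is given in the sources used here.

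Expected counts were rounded and tested with edgeR 4.0.16 in R 4.3.3 (TMM, filterByExpr with a minimum count of 10 and total of 15, quasi-likelihood F test, Benjamini-Hochberg over all genes tested, threshold 0.05). One fit held the 12 A549 libraries, one the 6 of MDA-MB-231 and one the 6 controls, and the siRNA1 effect was compared between lines in 12 libraries. The fits had group means only, and scripts were tested on simulated data.

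The 9 members and the 5 gene lists (other metallothioneins, ZnT, ZIP, copper handling, glucocorticoid response) were chosen with earlier results of these data known. Named genes were the members, BLM, and for each list and comparison up to 4 called genes, those of smallest adjusted p. Added to these were the 3 genes nearest in pattern to each of 4 metallothioneins. They were sought among genes that are not members, with an average log2 CPM of at least 1. A gene named for one comparison may be printed for others. Alternatives were DESeq2 1.42.0 size factors and its Wald test, upper quartile factors, 2 other filters, limma 3.58.1 on log2(TPM + 1) and log2(TPM + 0.1), the replicate block, other sets of libraries, leaving out each library and, added after the data were seen, effective length offsets and TPM for the summed metallothioneins.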

Additional observations from a re-analysis of the deposited data

Results flagged for a closer look

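The effect of siRNA1 differed between A549 and MDA-MB-231, by the interaction test in edgeR, for genes of every list. The 17 genes given here are a selection, at most the 4 of smallest adjusted p in each list. Tested were 2 other metallothionein, 6 ZnT, 11 ZIP, 12 copper and 11 glucocorticoid genes. Called with the higher effect in A549 were 1 ZnT, 4 ZIP, 2 copper and 4 glucocorticoid genes. Called with the lower effect were 1 other metallothionein, 3 ZnT, 1 ZIP, 3 copper and 6 glucocorticoid genes. Each value below is the log2 fold change in A549 minus that in MDA-MB-231. Each adjusted p is over all 16736 genes tested, of which 57.8% were called.

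MT1A differed by -0.98 (edgeR adjusted p = 0.0199), with log2 fold changes of -1.40 in A549 and -0.38 in MDA-MB-231. That call was lost without A549 control library 3 (edgeR adjusted p = 0.0510) and without MDA-MB-231 control library 3 (edgeR adjusted p = 0.0508).

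Among ZnT genes, SLC30A3 differed by -1.40, SLC30A4 by 0.93, SLC30A5 by -0.43 and SLC30A6 by -0.36 (edgeR adjusted p = 0.0111, 0.00183, 0.00610 and 0.00786). SLC30A4 was 0.50 in A549 and -0.38 in MDA-MB-231, where it was not called. Among ZIP genes, SLC39A6 differed by -0.33, SLC39A9 by 0.41, SLC39A11 by 1.1 and SLC39A13 by 0.69 (edgeR adjusted p = 0.00497, 0.000323, 4.40e-07 and 0.00152). SLC39A11 rose in both lines, by 1.44 in A549 and 0.38 in MDA-MB-231. On deposited TPM the calls for SLC30A5, SLC30A6 and SLC39A6 were lost.

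Among copper genes, SLC31A1 differed by -0.39, ATP7B by 0.67, ATOX1 by 0.46 and SCO1 by -0.37 (edgeR adjusted p = 0.000293, 0.000221, 0.00117 and 0.00461). The SCO1 call was lost on deposited TPM and the ATOX1 call when all 18 libraries were fitted together.

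Among glucocorticoid target genes, PER1 differed by -1.79, SGK1 by 1.18, DUSP1 by -0.87 and ERRFI1 by -0.79 (edgeR adjusted p = 3.50e-07, 9.42e-08, 2.36e-06 and 2.24e-06). On counts these 4 had opposite signs in the lines, each called in both. In TPM, DUSP1 was 107 ± 5.59 with siRNA1 and 103 ± 5.17 in control in A549, higher where counts gave -0.20, and ERRFI1 was 70.6 ± 4.71 with siRNA1 and 72.7 ± 0.831 in control (SD, n = 3 each), with overlapping libraries. PER1 was -1.16 in A549 and 0.68 in MDA-MB-231, and SGK1 was 0.80 in A549 and -0.33 in MDA-MB-231.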

How the results depend on the processing

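Every count over all genes stayed within 1.5 times its value under all alternatives run, and the members' counts did not. Members called higher with siRNA3 were 3 in place of 5 on TPM plus 1 and plus 0.1, and members called lower with siRNA2 than siRNA3 were 2 in place of 4 with upper quartile factors, with only those groups fitted and without siRNA2 library 3. On deposited TPM the log2 difference of summed metallothioneins was 1.52 for A549 siRNA1 against control (1.2 on counts), -2.52 for the 2 controls (-2.21) and 0.43 for the siRNA1 effect between lines (0.15, and 0.0117 to 0.289 leaving out 1 library). Among tested values, changed signs, none of them called, were MTF1 for siRNA2 against control (-0.0203 with all 18 libraries, and -0.0365 to 0.0918 leaving out 1 library, negative without control library 2), SLC30A1 for siRNA2 against siRNA3 (-0.0131 to 0.295 leaving out 1 library, negative without siRNA3 library 3) and SLC30A1 between controls (-0.102 and -0.105 on TPM plus 1 and plus 0.1). SLC30A1 between controls was called with upper quartile factors (edgeR adjusted p = 0.0268). MT1F for siRNA2 against siRNA3 was lost with upper quartile factors (edgeR adjusted p = 0.0541) and with only those groups fitted (edgeR adjusted p = 0.0655). Of 784 alternatives for members, 717 kept their direction and side of the threshold or moved less than the replicate spread, 20 lost a call, 3 gained one, 39 moved and 5 tested values changed sign. Among the described siRNA1 differences between lines, MTF1 changed sign in 11 of 22 alternatives (-0.126 to 0.153) and MT1F in 2 (-0.366 to 0.197).

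With the replicate number as a block, 11064, 9294, 9321 and 8960 genes were called for A549 siRNA1, siRNA2 and siRNA3 against control and siRNA2 against siRNA3, 8376 for MDA-MB-231, 12635 between controls and 9381 for the siRNA1 effect between lines. Same-numbered libraries deviated from their group means with correlations of -0.424 to 0.303, so the numbers were not taken to pair them. Low counts limit MT1F in MDA-MB-231 control (11 to 17) and MT1A most, and 3 libraries per group limit all.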
